A study of Mus musculus with 26 samples.

Results

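The subunits of the nuclear RNA polymerases were followed in mouse pro-B cells with deleted or knocked-down Brg1 (gene symbol Smarca4), the ATPase of the BAF chromatin remodelling complex. The set held every protein-coding gene listed in both deposited RNA tables whose name begins with Polr1, Polr2 or Polr3. These were 28 genes, 5 named Polr1, 13 named Polr2 and 10 named Polr3, of 19404 genes listed after Brg1 deletion and 19719 listed after Brg1 knockdown. Cells were B220+ bone marrow cells of C57/Bl6 mice grown for 7 days with IL7 and SCF. In the deletion experiment, the Brg1-deleted cells carried floxed Brg1 alleles and a tamoxifen-inducible Cre (Brg1F/F x ER-Cre, 2 libraries). Their controls carried wild-type Brg1 with the same Cre (Brg1+/+ x ER-Cre, 2 libraries). Both received 0.3 µM tamoxifen for the last 60 h, so Cre and tamoxifen were common to all 4 libraries. In the knockdown experiment, Rag1-/- pro-B cells, which cannot rearrange their antigen receptor genes, were infected with retrovirus on days 3 and 4. They received a Brg1 shRNA (3 libraries) or a control shRNA (3 libraries), and infected cells were enriched with beads against hCD25. Whether replicate libraries stem from different mice or cultures is not stated in the labels, so their spread may be technical, and no age is given.

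RNA polymerase I transcribes the large ribosomal RNA precursor, RNA polymerase II makes messenger RNA, and RNA polymerase III makes transfer RNA, 5S ribosomal RNA and other short RNAs. Each enzyme is built around a pair of large subunits that form the active centre, with a set of smaller subunits, some of which are shared between enzymes. Growing lymphocyte precursors need much ribosomal and transfer RNA, and the output of polymerases I and III is regulated with growth signals, among them the transcription factor Myc. By the enzyme to which the protein belongs, 3 members were subunits of polymerase I alone, 2 of I and III, 5 of all 3 enzymes, 8 of II alone and 10 of III alone. The libraries were made from polyadenylated RNA, so the values are levels of subunit mRNA. Neither the proteins nor the transcripts that polymerases I and III make were measured.

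The tables give 1 mean of normalised reads per group and gene, with a test by the authors. The 4 deletion libraries held 11583359 and 8767144 reads in Brg1-deleted cells, against 10768891 and 10212138 in controls. Those of the knockdown held about 11100000, 9800000 and 8300000 reads with Brg1 shRNA, against about 10500000, 9400000 and 5200000 with control shRNA. Smarca4 mRNA was 2.95-fold lower in Brg1-deleted cells than in controls and 1.98-fold lower with Brg1 shRNA than with control shRNA, for which the authors' deposited tables give adjusted p = 0.0008 and 0.0472. All 10 B lineage markers were listed in both tables, and their summed means were 81430 normalised reads in Brg1-deleted cells against 54426 in controls, and 49762 with Brg1 shRNA against 42681 with control shRNA. After deletion 7 had higher and 3 lower means, and after knockdown 6 had higher and 4 lower means. The 4 lower after knockdown include Rag1 (148 with Brg1 shRNA against 257 with control shRNA), the gene disrupted in these Rag1-/- cells. Cd79b was called higher after deletion, with 20542 in Brg1-deleted cells against 8045 in controls (adjusted p = 0.0106, authors' deposited table). Markers of other cells moved with the deletion. All 12 myeloid markers had lower means in Brg1-deleted cells, 3 of them called lower (Ctsg, Elane and Prtn3), and the sums over the 11 that could be resolved by library were 4607 and 2486 normalised reads in Brg1-deleted libraries, against 3879 and 7809 in control libraries. Libraries of 1 group differed in single myeloid genes, as in C1qb with 118 and 9.30 in Brg1-deleted libraries against 11.7 and 210.2 in control libraries. Of 9 T and innate lymphoid markers, 6 had lower means, Lck and Thy1 called lower, with sums of 268 and 299 in Brg1-deleted libraries against 693 and 562 in control libraries. Of 8 erythroid and mast markers, 6 were listed and 5 of these had lower means, none called, with sums of 305 and 101 in Brg1-deleted libraries against 130 and 313 in control libraries. In the knockdown no marker of another cell type was called, and the myeloid sums were 476 with Brg1 shRNA against 471 with control shRNA. The part of these cells in the deletion results below was not tested. In bulk RNA, fewer cells of a type and less RNA per cell cannot be told apart.

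No polymerase subunit passed the authors' test in either experiment, but most had lower means in the Brg1-depleted cells. By the authors' deposited calls, 0 of the 28 had an adjusted p under 0.05 after deletion, where 1.47% of all listed genes did, and 0 of 28 after knockdown, where 0.218% did. At an unadjusted p under 0.05 the authors' deposited table held 4 members after deletion, all lower (Polr1b, Polr2f, Polr2h and Polr3e), beside 5.29% of all listed genes lower at that limit. After knockdown it held 0, beside 1.08%. A closer background is the protein-coding genes within the members' range of control means. Of these, 1646 of 11273 passed that limit in either direction after deletion, and 460 of 10343 after knockdown. The log2 ratio of the 2 group means was below 0 for 20 of 28 members after deletion, with a median of −0.36, and for 23 of 28 after knockdown, with a median of −0.14. Over all protein-coding genes 51% were below 0 after deletion, median −0.02, and 51.3% after knockdown, median −0.01. Restricting these genes to the range of control means spanned by the members gave 52.0% and 52.8% below 0.

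The members grouped by name differed in their medians. The 5 Polr1 genes were all below 0 in both experiments, with median log2 ratios of −0.50 after deletion and −0.28 after knockdown. Of the 13 Polr2 genes 9 were below 0 after deletion and 11 after knockdown, with medians of −0.35 and −0.11. Of the 10 Polr3 genes 6 and 7 were below 0, with medians of −0.27 and −0.08. Sorted by enzyme instead, the subunits of polymerase I alone had the lowest median in both experiments, −0.93 and −0.43, and those of polymerase II alone had −0.18 and −0.09. These medians describe genes of 1 cell population and carry no test.

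**Figure D1:**
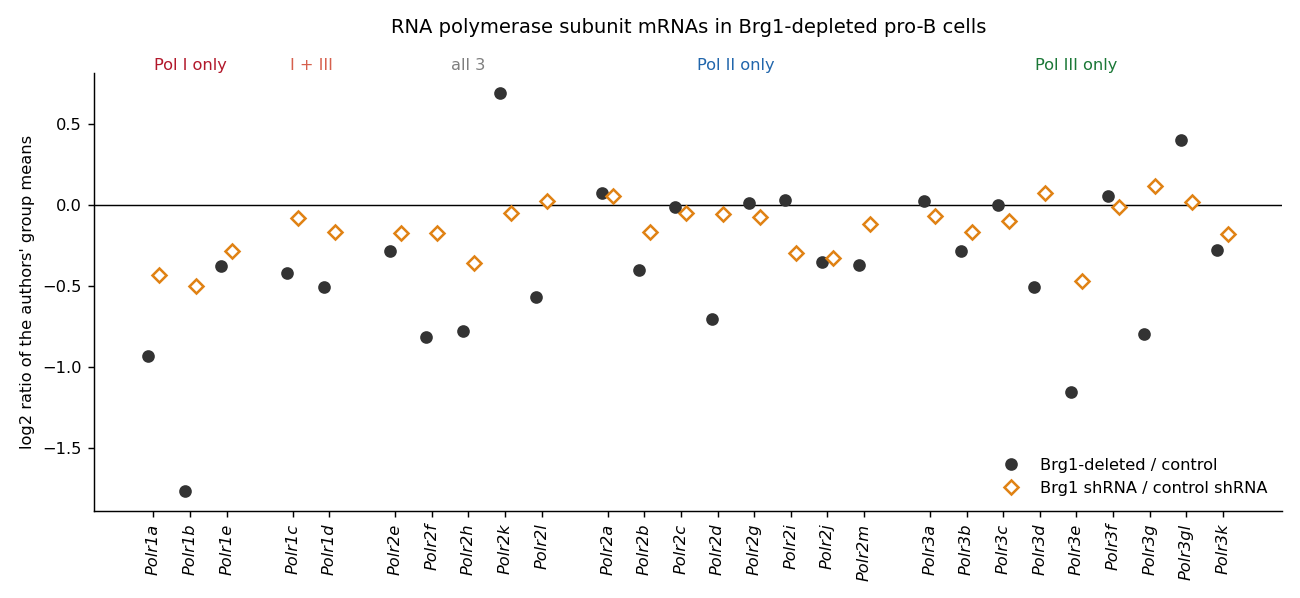
The log2 ratio of the authors' group means (y axis) is plotted for 27 of the 28 genes, sorted by the enzyme the subunit belongs to (x axis). Filled circles are Brg1-deleted over control and open diamonds Brg1 shRNA over control shRNA. Polr1b, Polr3e and Polr1a are the lowest members in both, and Polr2k and Polr3gl stand highest after deletion.

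For deletion, the mean of 2 libraries could be split into whole reads of each library for 26 of the 28 members, all but Polr2a and Polr2m. The labels do not say which recovered library is which replicate, so the libraries of a group are called deeper and shallower by their total reads. Both Brg1-deleted libraries lay below both control libraries for 17 of the 26 members. Of resolved protein-coding genes with a mean of at least 1, 25.5% did so. Both lay above for 2 members, Polr2k and Polr3gl, where 25.4% of the same genes did so. The 4 libraries overlapped for the other 7, Polr1d, Polr2c, Polr2g, Polr2i, Polr3a, Polr3c and Polr3f. A limma fit on the recovered reads, adjusted over 16813 genes, called 0 members and 0 genes at an adjusted p under 0.05. At an unadjusted p under 0.05 it held 7 members, all lower (Polr1a, Polr1b, Polr2d, Polr2f, Polr2h, Polr3e and Polr3g), beside 8.75% of all genes fitted. For the shares in this paragraph, no background within the members' range of control means was computed.

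**Figure D2:**
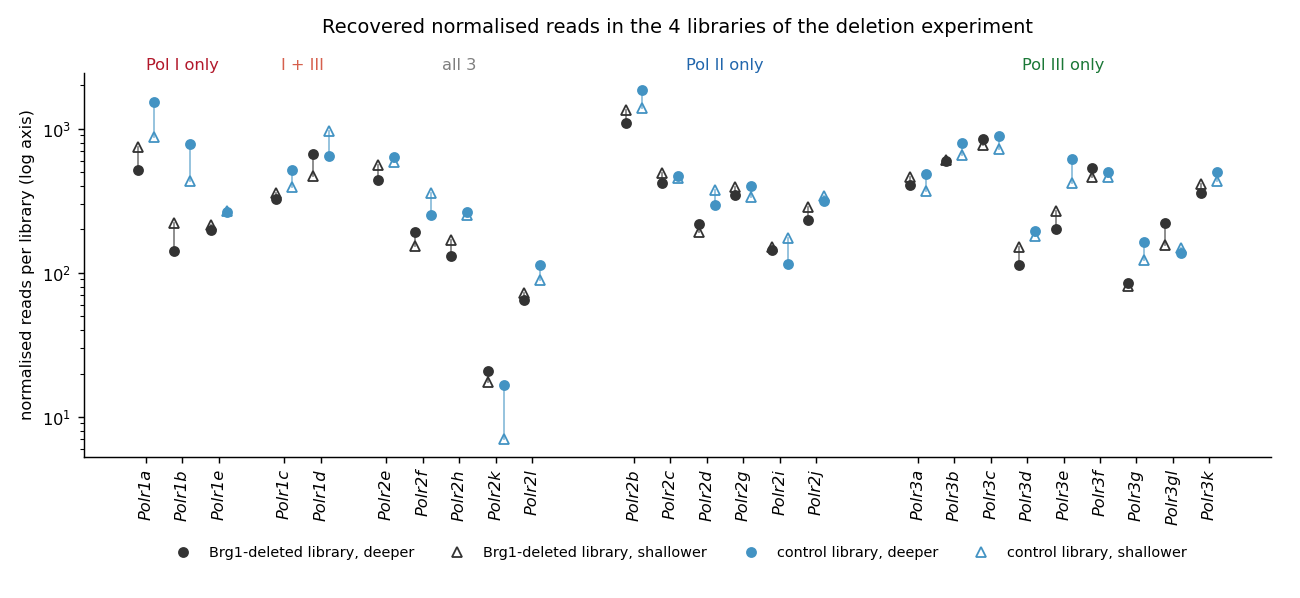
Normalised reads recovered for each library of the deletion experiment (y axis, log scale) are plotted for 25 of the 26 resolved genes by enzyme (x axis), Brg1-deleted libraries in black and control libraries in blue, with circles for the deeper and triangles for the shallower library of each group. For Polr1b and Polr3e the groups stand clear of each other, and the control libraries differ among themselves by more than the Brg1-deleted ones for Polr1a.

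The promoters of 5 members are shown. These are the subunits with the lowest ratios (Polr1a, Polr1b and Polr3e) and the alternative pair whose values lay on opposite sides after deletion (Polr3g and Polr3gl). Each is the 250 bases upstream of the gene's RefSeq start in GRCm38.p6, on the gene's strand, 5′ to 3′. In the deposited tables (mm10) Polr1a is ENSMUSG00000049553 at chr6:71909053-71979356, Polr1b is ENSMUSG00000027395 at chr2:129100995-129126594, Polr3e is ENSMUSG00000030880 at chr7:120917744-120947432, Polr3g is ENSMUSG00000035834 at chr13:81673843-81711013 and Polr3gl is ENSMUSG00000028104 at chr3:96577872-96594181. The RefSeq start of Polr3e lies inside the gene as the tables place it, so the last bases of its stretch belong to that longer form. The stretches printed are chr6:71908803-71909052 on the plus strand for Polr1a, chr2:129100746-129100995 on the plus strand for Polr1b, chr7:120917528-120917777 on the plus strand for Polr3e, chr13:81711014-81711263 on the minus strand for Polr3g and chr3:96594182-96594431 on the minus strand for Polr3gl. Capitals mark matches on either strand to the motifs CACGTG (the E-box bound by Myc), CCGGAA (the core bound by ETS factors) and TGGGAA (the core bound by Ikaros), and to the B box (an internal promoter element of transfer RNA genes read by polymerase III), the one longer run in capitals, in Polr3e.
Polr1a: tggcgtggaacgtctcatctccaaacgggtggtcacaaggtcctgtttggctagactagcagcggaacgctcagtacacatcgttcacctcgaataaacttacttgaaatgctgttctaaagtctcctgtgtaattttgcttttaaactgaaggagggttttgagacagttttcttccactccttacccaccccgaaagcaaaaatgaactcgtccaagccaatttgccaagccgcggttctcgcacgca
Polr1b: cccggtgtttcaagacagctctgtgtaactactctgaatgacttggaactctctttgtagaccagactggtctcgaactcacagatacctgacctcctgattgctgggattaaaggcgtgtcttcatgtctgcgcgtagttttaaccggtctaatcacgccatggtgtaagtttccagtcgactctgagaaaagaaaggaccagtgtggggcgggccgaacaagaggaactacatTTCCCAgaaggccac
Polr3e: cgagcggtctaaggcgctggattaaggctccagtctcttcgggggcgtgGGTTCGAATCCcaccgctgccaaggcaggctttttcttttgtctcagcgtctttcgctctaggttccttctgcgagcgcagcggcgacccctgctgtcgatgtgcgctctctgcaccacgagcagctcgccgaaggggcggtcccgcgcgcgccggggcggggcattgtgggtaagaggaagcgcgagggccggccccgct
Polr3g: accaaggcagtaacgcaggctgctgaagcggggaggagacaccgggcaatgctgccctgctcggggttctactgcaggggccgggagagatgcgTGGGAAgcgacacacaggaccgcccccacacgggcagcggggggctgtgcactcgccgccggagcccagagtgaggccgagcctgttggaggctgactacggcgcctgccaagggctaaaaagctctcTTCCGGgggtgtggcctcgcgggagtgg
Polr3gl: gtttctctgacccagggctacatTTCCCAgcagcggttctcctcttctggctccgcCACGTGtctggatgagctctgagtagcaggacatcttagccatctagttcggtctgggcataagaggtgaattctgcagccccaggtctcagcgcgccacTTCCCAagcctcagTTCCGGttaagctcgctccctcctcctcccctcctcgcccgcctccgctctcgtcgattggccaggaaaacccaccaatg

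Of the 28 members, 22 had a RefSeq promoter window of 300 bases (the 250 upstream bases and the first 50 of the gene), and 6 did not. CACGTG was in 4 of the 22 (Polr2h, Polr3c, Polr3e and Polr3gl), beside 11.0% of 11053 listed protein-coding genes with a window. CCGGAA was in 11, beside 28.1%, and TGGGAA was also in 11, 6 of which also held CCGGAA, beside 27.0%. Neither Polr1a nor Polr1b held CACGTG or CCGGAA in this window. The window of Polr3e held the B box, 201 bases upstream of its start, which 0.208% of the listed genes and 40 of all 32851 windows held. That match lies in an annotated transfer RNA gene, n-TLaag4, of 82 bases at chr7:120917517-120917598, which ends 179 bases before the Polr3e start. Of all windows, 10 touched a transfer RNA gene. The CACGTG of Polr3e lies at base 6 of the gene, outside the stretch printed. A match describes the letters of these windows only, and binding was not analysed here.

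Polymerase I held the members with the lowest and the third-lowest ratio in each experiment, Polr1b and Polr1a. Polr1b, the second-largest subunit, had 141 and 221 normalised reads in the deeper and shallower Brg1-deleted libraries, against 790 and 437 in the control libraries. All 4 libraries were apart by group, and the higher Brg1-deleted library held 190 reads against 437 in the lower control library. The group means were 181 in Brg1-deleted cells against 614 in controls, a 3.39-fold lower mean for which the authors' deposited table gives adjusted p = 0.2491. The limma difference was −1.73 on the log2 scale (95% CI −2.68 to −0.79, SE 0.38), with an adjusted p of 0.142. With Brg1 shRNA the authors' mean was 407, against 574 with control shRNA, 1.41-fold lower, and the authors' deposited table gives adjusted p = 1.

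Polr1a, the largest subunit of polymerase I and the one that carries its catalytic residues, had 517 and 745 normalised reads in Brg1-deleted libraries, against 1531 and 873 in control libraries. The groups did not overlap, but the lower control library stood close to the higher Brg1-deleted one. The means were 631 against 1202, a log2 ratio of −0.93. The limma difference was −0.90 (95% CI −1.74 to −0.05) and became −0.49 when the deeper control library was left out. With Brg1 shRNA the mean was 750, against 1009 with control shRNA, a log2 ratio of −0.43. A lincRNA gene on the opposite strand, Gm26628, overlaps Polr1a, and its own means were 4.77 in Brg1-deleted cells against 10.8 in controls.

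Polr1e, a subunit that aids initiation and elongation by polymerase I, had 198 and 214 normalised reads in Brg1-deleted libraries, against 264 and 269 in control libraries. The groups were apart and each was narrow, with a log2 ratio of −0.37 and a limma interval of −0.87 to 0.13. Its knockdown means were 209 with Brg1 shRNA against 254 with control shRNA, a log2 ratio of −0.28. Polr1e overlaps Fbxo10 on the other strand, whose means ran the other way (132 in Brg1-deleted cells against 69.1 in controls). Whether the authors counted reads by strand is not given in the sources used here, and without strand the reads of such pairs cannot be told apart.

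Polr1c and Polr1d form the pair on which polymerases I and III are assembled. Polr1c had 323 and 359 normalised reads in Brg1-deleted libraries, against 517 and 393 in control libraries, so the groups did not overlap. Polr1d had 665 and 470 in Brg1-deleted libraries, against 648 and 961 in control libraries, which overlapped. Their log2 ratios were −0.42 and −0.50 after deletion and −0.08 and −0.16 after knockdown.

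Among the 5 subunits that all 3 enzymes share, 4 were lower in both Brg1-deleted libraries than in both control libraries. Polr2f had 192 and 155 normalised reads in Brg1-deleted libraries, against 252 and 356 in control libraries, a log2 ratio of −0.81 (adjusted p = 0.6022, authors' deposited table). Polr2h had 131 and 169 in Brg1-deleted libraries, against 263 and 250 in control libraries, a log2 ratio of −0.78 (adjusted p = 0.6066, authors' deposited table). Both are small subunits found in every nuclear RNA polymerase, and both pairs of control libraries stood clear of the Brg1-deleted ones. Polr2h, unlike Polr2f, overlaps another listed gene. This is Clcn2 on the other strand, whose means were 59.7 in Brg1-deleted cells against 46.8 in controls. Polr2l, which sits at the assembly platform, had 64.8 and 72.1 in Brg1-deleted libraries, against 113 and 89.1 in control libraries. Polr2e had 443 and 559 in Brg1-deleted libraries, against 633 and 587 in control libraries, the smallest gap of the 4 as a ratio.

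Polr2k was the member with the highest ratio after deletion, and also the one with the fewest reads. Its limma difference was 0.20 without the shallower control library, below the 0.45 of Polr3gl, and 1.38 without the deeper one. It had 24 and 15 reads in the Brg1-deleted libraries, against 17 and 7 in the control libraries, or 20.7 and 17.4 normalised reads against 16.6 and 7.01. The groups were just apart, at a log2 ratio of 0.70 whose limma interval ran from −0.72 to 2.30. In the knockdown the 5 shared subunits had smaller differences. Polr2h had 189 with Brg1 shRNA against 242 with control shRNA, a log2 ratio of −0.36, Polr2f 224 against 252, a log2 ratio of −0.17, and Polr2e 484 against 544, a log2 ratio of −0.17. Polr2k (15.4 against 16.0) and Polr2l (70.5 against 69.3) had log2 ratios of −0.05 and 0.03.

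The subunits of polymerase II alone showed the smallest median difference of the 5 groups of subunits after deletion. Polr2a, the largest subunit and the bearer of the C-terminal repeat domain, had a mean of 6599 normalised reads in Brg1-deleted cells against 6250 in controls, and 4919 with Brg1 shRNA against 4722 with control shRNA. Its log2 ratios were 0.08 and 0.06, and its libraries could not be resolved. Polr2b, its partner in the active centre, had 1101 and 1358 in Brg1-deleted libraries, against 1849 and 1399 in control libraries, with no overlap and a log2 ratio of −0.40 (limma 95% CI −0.93 to 0.14). The gap between the higher Brg1-deleted and the lower control library of Polr2b was small beside the spread within either group. Its knockdown means were 1253 with Brg1 shRNA against 1403 with control shRNA, a log2 ratio of −0.16.

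Among the smaller subunits of polymerase II, the 2 stalk subunits had different values. Polr2d had 219 and 192 normalised reads in Brg1-deleted libraries, against 294 and 373 in control libraries, a log2 ratio of −0.70. Polr2g, with which the Polr2d protein pairs in the stalk, had 348 and 396 in Brg1-deleted libraries, against 402 and 334 in control libraries, a log2 ratio of 0.02 with a limma interval of −0.49 to 0.53. Whether these ratios differ from each other was not tested. In the knockdown Polr2d had 265 with Brg1 shRNA against 274 with control shRNA and Polr2g had 348 against 366, log2 ratios of −0.05 and −0.07. Of the assembly pair Polr2c and Polr2j, Polr2j had 232 and 286 in Brg1-deleted libraries, against 317 and 343 in control libraries, while Polr2c overlapped between groups and had means of 459 in Brg1-deleted cells against 463 in controls. Polr2i, which helps the enzyme keep transcription accurate, overlapped as well, with a log2 ratio of 0.04 after deletion and −0.30 after knockdown. Polr2m, a negative regulator that binds the enzyme, had a mean of 1593 in Brg1-deleted cells against 2056 in controls and shares its strand and locus with the gene Gcom1.

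Polymerase III held both a strongly lower member and several close to 0. Polr3e, which with Polr3d forms the module that aids opening and termination, had 200 and 269 normalised reads in Brg1-deleted libraries, against 617 and 423 in control libraries. The groups stood clear of each other, with 231 reads in the higher Brg1-deleted library against 423 in the lower control library. The means were 235 against 520, a 2.22-fold lower mean. The authors' deposited table gives adjusted p = 0.1435 for Polr3e, the lowest of the 28 members. The limma difference was −1.14 on the log2 scale (95% CI −1.84 to −0.44) with an adjusted p of 0.156. With Brg1 shRNA the mean was 343, against 474 with control shRNA, 1.38-fold lower. Polr3d had 114 and 150 in Brg1-deleted libraries, against 195 and 179 in control libraries, a log2 ratio of −0.50, and its knockdown ratio was 0.08.

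The 2 large subunits of polymerase III had small ratios. Polr3a, the largest, had 409 and 465 normalised reads in Brg1-deleted libraries, against 488 and 371 in control libraries, which overlapped. Its limma difference was 0.04 with a 95% interval of −0.51 to 0.58, which leaves room for a change of that size in either direction. Polr3b, its partner, had 594 and 602 in Brg1-deleted libraries, against 794 and 658 in control libraries, with no overlap and a log2 ratio of −0.28. The knockdown log2 ratios were −0.07 for Polr3a and −0.16 for Polr3b.

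The trimer that recruits polymerase III to its promoters consists of Polr3c, Polr3f and either Polr3g or Polr3gl. Polr3c had 850 and 774 normalised reads in Brg1-deleted libraries, against 895 and 728 in control libraries, and Polr3f had 537 and 463 against 502 and 460. Both overlapped between groups, with log2 ratios of 0.00 and 0.06 and limma intervals of −0.46 to 0.48 and −0.41 to 0.52. Polr3g, the form known from stem cells and growing cells, had 84.7 and 81.4 in Brg1-deleted libraries, against 165 and 123 in control libraries. Polr3gl, the form found in most adult tissues, had 221 and 157 in Brg1-deleted libraries, against 136 and 149 in control libraries. The 2 alternative forms thus lay on opposite sides, each with no overlap, at log2 ratios of −0.79 for Polr3g and 0.40 for Polr3gl. Neither was called, and limma gave intervals of −1.46 to −0.09 and −0.28 to 1.05. The gap of Polr3gl was narrow and rested on the size factors. Before they were applied, its shallower Brg1-deleted library held 135 reads, against 140 and 149 in control libraries.

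On a scale of normalised reads per kb of exon, the level of Polr3g over that of Polr3gl was 0.178 in Brg1-deleted cells and 0.409 in controls. By library the ratio was 0.155 and 0.210 in Brg1-deleted cells, against 0.490 and 0.335 in controls, so the groups did not overlap, although the gap between them was smaller than the spread of the controls. With 2 libraries against 2, an exact permutation test cannot give a two-sided p below 0.333, and none was made. In the knockdown the ratio was 0.489 with Brg1 shRNA against 0.458 with control shRNA. Polr3g had 133 with Brg1 shRNA against 122 with control shRNA, and Polr3gl had 110 against 108. Polr3gl overlaps Gm16253 on the other strand, whose means were 6.94 in Brg1-deleted cells against 4.97 in controls. Polr3k, which aids RNA cleavage, had 359 and 414 normalised reads in Brg1-deleted libraries, against 500 and 437 in control libraries, with no overlap, and log2 ratios of −0.28 after deletion and −0.18 after knockdown.

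Between genes, levels were compared as normalised reads per kb of exon, with each column scaled to 1000000 reads in all. Polr2a had the highest level in Brg1-deleted cells and in the deletion controls, 92.3 and 85.4, and Polr2m the highest with Brg1 shRNA and with control shRNA, 82.0 and 86.0. At the other end stood Polr2k, with 3.03 in Brg1-deleted cells against 1.82 in controls and 2.88 in both shRNA groups, and Polr3g, with 2.09 in Brg1-deleted cells against 3.53 in controls and 3.92 with Brg1 shRNA against 3.50 with control shRNA. Polr1b had a level of 3.08 in Brg1-deleted cells against 10.2 in controls, and 8.15 with Brg1 shRNA against 11.1 with control shRNA. Polr3e had 5.48 in Brg1-deleted cells against 11.9 in controls, and 9.40 with Brg1 shRNA against 12.6 with control shRNA.

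The sums that follow cover members of the set only, so they leave out Cd3eap, Znrd1, Twistnb and Crcp, subunits under other names given below. Summed over the 3 members of polymerase I alone, the level was 18.5 in Brg1-deleted cells against 35.8 in controls. It was 28.7 with Brg1 shRNA against 37.1 with control shRNA, and the ratios were 0.517 and 0.773. The 8 subunits of polymerase II alone summed to 311 in Brg1-deleted cells against 344 in controls, and 348 with Brg1 shRNA against 359 with control shRNA, ratios of 0.904 and 0.970. For the 10 of polymerase III alone the sums were 98.4 in Brg1-deleted cells against 110 in controls, and 111 with Brg1 shRNA against 119 with control shRNA, ratios of 0.893 and 0.936. The level of Polr1a over that of Polr2a was 0.111 in Brg1-deleted cells against 0.223 in controls, and 0.177 with Brg1 shRNA against 0.247 with control shRNA. The same ratio for Polr3a over Polr2a was 0.100 in Brg1-deleted cells against 0.104 in controls, and 0.115 with Brg1 shRNA against 0.126 with control shRNA.

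**Figure D3:**
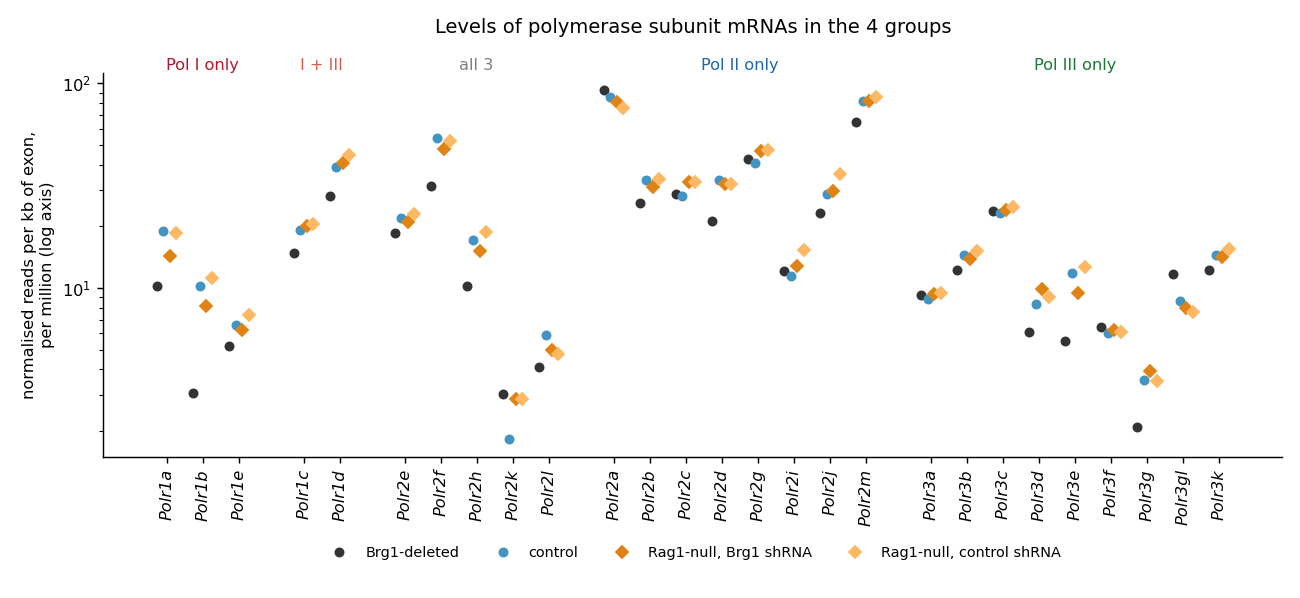
The level of 27 of the 28 mRNAs (y axis, normalised reads per kb of exon with each column scaled to 1000000 reads, log scale) is plotted in the 4 groups, by enzyme (x axis); each point is the mean of a group, with no error because the tables hold means. In Brg1-deleted cells Polr1b sits at 3.08, well below the other 3 groups, and the 4 points of Polr2c, Polr3a, Polr3c and Polr3f lie close together.

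The 2 experiments share no sample, and their members were set side by side. Polr1b, Polr3e and Polr1a had the 3 lowest ratios in each, in that order. Of the 28 members, 17 were below 0 in both and 2, Polr2a and Polr3gl, above 0 in both, where 38% of 14477 protein-coding genes listed in both tables were below 0 in both. In each experiment alone, 20 and 23 of the 28 were below 0, a larger share than among all protein-coding genes. These counts therefore do not measure agreement between the experiments. The size of the log2 ratio was larger after deletion for 22 of the 28, as it was for 10240 of the 14477 genes, and for 8326 of the 10909 genes that, like every member, had control means of at least 10 in both experiments. Across the 28 genes the Pearson correlation of the log2 ratios was 0.55 and the Spearman correlation 0.39, given as a description since genes are not independent. Over the 14477 genes they were 0.42 and 0.53, and over the 10909 genes they were 0.72 and 0.75, both above the members' values. All other members lay on opposite sides in the 2 experiments. Polr3g, Polr3d and Polr2l were at −0.79, −0.50 and −0.56 after deletion and at 0.12, 0.08 and 0.03 after knockdown. Polr2g, Polr2i, Polr2k, Polr3a, Polr3c and Polr3f were above 0 after deletion and below 0 after knockdown. The difference between the experiments in any gene was not tested.

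**Figure D4:**
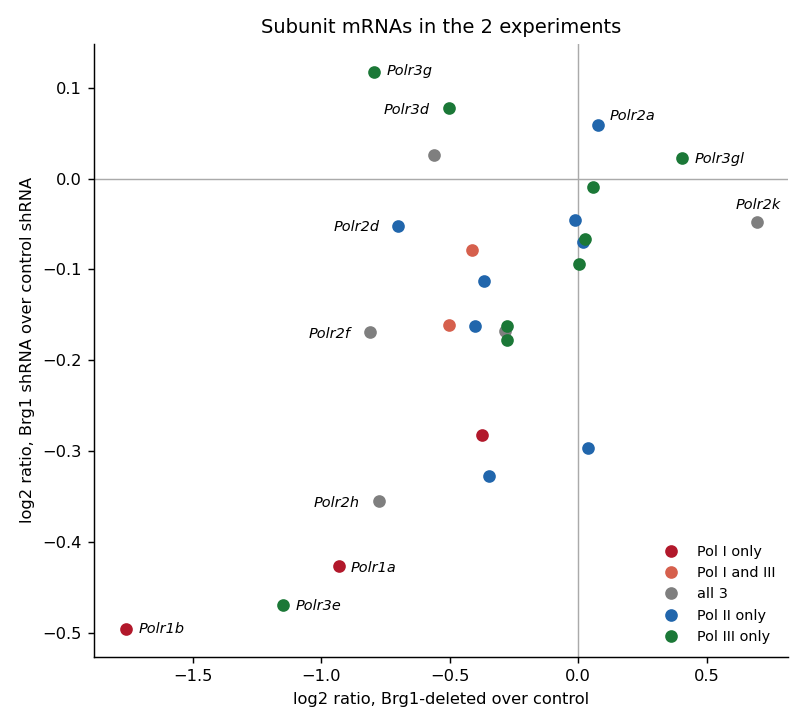
Each of the 27 points is a subunit gene, with its log2 ratio for Brg1-deleted over control on the x axis and for Brg1 shRNA over control shRNA on the y axis (the axes have different scales), coloured by enzyme. Polr1b, Polr3e and Polr1a lie together at the lower left, and Polr3g, Polr3d and Polr2l lie at the upper left, Polr2l just above 0 on the y axis.

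Other genes of the 3 transcription systems were counted from lists. None of their members was called in either experiment in the authors' deposited tables. The 3 polymerase I subunits under other names, Cd3eap, Znrd1 and Twistnb, all lay below 0 in both experiments, with medians of −0.38 and −0.19. Cd3eap, the partner of Polr1e, had 93.3 and 69.8 normalised reads in Brg1-deleted libraries, against 183 and 239 in control libraries. Its groups did not overlap, at a log2 ratio of −1.37 (adjusted p = 0.0974, authors' deposited table). In the knockdown Cd3eap had 121 with Brg1 shRNA against 200 with control shRNA, a log2 ratio of −0.72. Of the 8 polymerase I factors, 4 were below 0 after deletion and 5 after knockdown, with medians of −0.11 and −0.01. Among them Rrn3, the factor that makes polymerase I competent to initiate, had 467 and 508 in Brg1-deleted libraries, against 839 and 629 in control libraries. Taf1d, of the promoter selectivity factor, had 349 and 313 against 645 and 618. The knockdown log2 ratios of Rrn3 and Taf1d were −0.14 and −0.28. Of the 4 factors above 0 after deletion, Taf1c had 391 and 431 in Brg1-deleted libraries, against 304 and 296 in control libraries. Ttf1 had 811 and 812 against 644 and 619. The knockdown log2 ratios of Taf1c and Ttf1 were −0.01 and 0.17. Ubtf, which binds ribosomal DNA, had means of 3359 in Brg1-deleted cells against 3331 in controls.

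For polymerase III, the 16 factors outside the enzyme had medians of 0.02 and 0.00, with 7 and 8 below 0, and the stalk subunit Crcp had log2 ratios of −0.20 and 0.02. Maf1, the repressor of polymerase III, had 1895 and 2169 normalised reads in Brg1-deleted libraries, against 1428 and 1292 in control libraries. Its groups did not overlap, at a log2 ratio of 0.58 (adjusted p = 0.8527, authors' deposited table). It had 1334 with Brg1 shRNA against 1123 with control shRNA, a log2 ratio of 0.25.

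The 32 general factors of polymerase II had medians of −0.22 and −0.12, with 26 below 0 in each experiment, and Ccnh, the cyclin of the TFIIH kinase, had the lowest ratio after deletion, −1.06 (adjusted p = 0.1268, authors' deposited table). The 18 elongation factors had medians of 0.04 and 0.03, with 7 and 8 below 0, and ran from Wdr61 at −0.96 to Aff4 at 0.85 after deletion. The 11 assembly factors had medians of −0.32 and −0.08, with 8 and 9 below 0. Rpap3, of the chaperone complex that assembles polymerases, had 213 and 209 in Brg1-deleted libraries, against 351 and 362 in control libraries. Of 6 mitochondrial transcription genes 5 were listed, 4 below 0 after deletion and 5 after knockdown, with medians of −0.28 and −0.25. The mitochondrial polymerase Polrmt had log2 ratios of 0.21 and 0.00. Tefm had 62.2 and 51.2 normalised reads in Brg1-deleted libraries, against 125 and 107 in control libraries. Its log2 ratios were −1.03 after deletion (adjusted p = 0.5442, authors' deposited table) and −0.56 after knockdown. Myc, the growth regulator, had a mean of 517 normalised reads in Brg1-deleted cells against 1938 in controls, and 1242 with Brg1 shRNA against 1743 with control shRNA, for which the authors' deposited tables give adjusted p = 0.146 and 1. Its part in the subunit values was not tested.

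**Figure D5:**
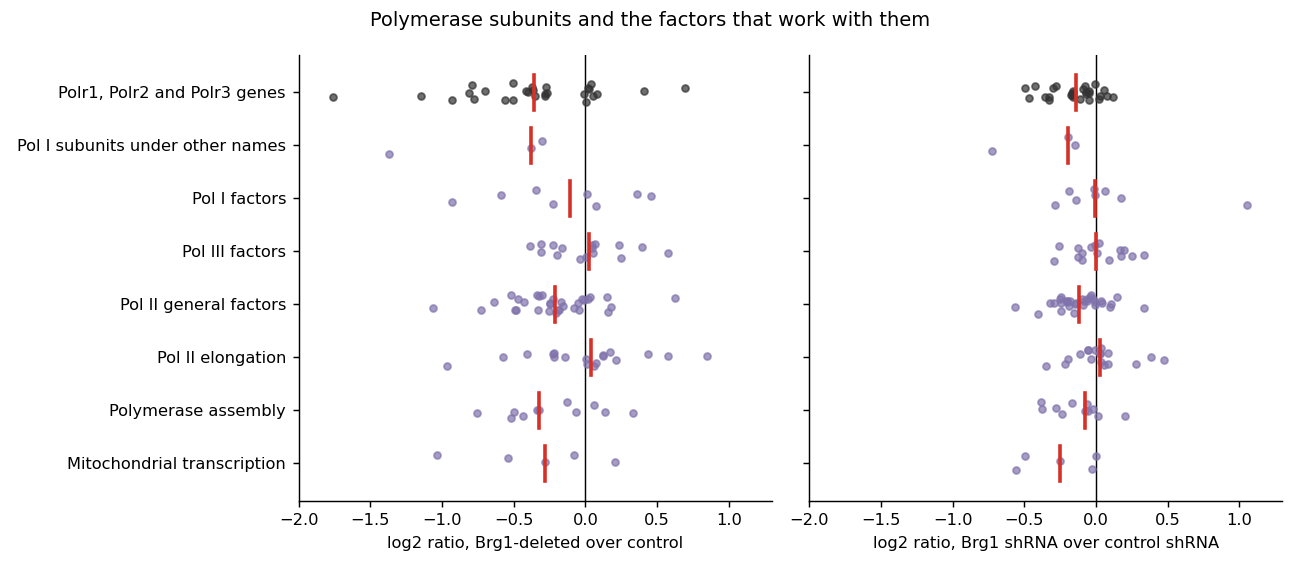
Each point is a gene, with its log2 ratio on the x axis (Brg1-deleted over control in the left panel, Brg1 shRNA over control shRNA in the right panel), for the 28 subunit genes and 7 lists of related genes down the page; red bars are medians. The subunit median is −0.36 in the left panel, and the polymerase III and elongation factors centre near 0 in both.

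Of the 28 members 13 carried the authors' confounded mark in both tables, and these were exactly the 13 whose locus overlaps another listed gene, 2 of them (Polr2m and Polr3c) on the same strand. Polr1b, Polr2f, Polr3e, Polr3g and Polr1c are among the 15 without the mark, while Polr1a and Polr2h carry it. Some overlapping genes on the opposite strand had many reads. In Brg1-deleted cells against controls, Rnf115 over Polr3c had 594 against 627, and Lrwd1 over Polr2j had 989 against 955. Tbcb over Polr2i had 383 against 416, and Dok4 over Polr2c had 69.3 against 14.3. Scaling each column to the same total in place of the authors' size factors shifted all log2 ratios up by 0.035 after deletion and 0.045 after knockdown.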

How the data were processed

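Normalised reads are a signal that the authors deposited as 1 mean per group and gene, reads divided by library size factors, as the file headers and values show. Per the file headers, the tables also hold a log2 fold change, a signed fold (a score), a p-value and an adjusted p-value, each computed by the authors. The submitters' processing notes name CASAVA, RSEM, DESeq and mm10, without versions. Read strand handling is not given in the sources used here. Such size factors hold most genes equal, so a shift in RNA per cell common to all genes would not appear.

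Calls are the authors', at an adjusted p under 0.05. Log2 ratios, levels and counts were computed from the deposited means (Python 3.11.15, numpy 2.4.6, pandas 2.3.3, matplotlib 3.10.9). Deletion means were split into whole reads of 2 libraries within 6e-05, with a solution for 19398 of 19404 genes and a single one in both groups for 94.8%. Of random values drawn below the means of most members, 2.22% had a solution with the control size factors. Random solutions are more common at higher means, where their share was not measured. Those with a mean of at least 1 were fitted as log2((reads + 0.5)/size factor) with limma 3.58.1 (R 4.3.3, trend), tested on simulated data. Knockdown libraries could not be resolved. P-values measure the spread between libraries only.

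Members, lists and named genes were chosen with earlier results of these data known. Named with values were the large and shared subunits, Polr3g, Polr3gl, and the 3 highest and lowest ratios per table. Also named were the 1 to 3 genes of lowest adjusted p in each list but that of erythroid and mast markers. Ubtf, Taf1c, Ttf1, Polrmt, Crcp, C1qb and further subunits were added. Motifs were searched on both strands of RefSeq windows. The other 16 samples of the series were not analysed here. The values of 1 subunit are counted in all totals, and its own values are not reported here.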

Additional observations from a re-analysis of the deposited data

How the results depend on the processing

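No subunit was called in either experiment (0 of 28) at an adjusted p under 0.1 (419 genes called in all after deletion, 52 after knockdown). The same held with adjustment over all listed genes (330, 49) or protein-coding genes (322, 46). Nor was any called among the 26 subunits kept by a filter at 10 reads in 1000000 (342, 40). The 15 subunits without the confounded mark also gave no call (162, 28). A fold minimum of 1.5 could not add calls. In the deletion, limma with a pseudocount of 0.5 or 2 called 0 genes in all, so its 0 subunits say nothing about stability. Without each library in turn it called 0 to 0 subunits and 0, 0, 1 and 41 genes in all. The lowest adjusted p of a member under these settings was 0.0669, for Polr1b in limma without the shallower control library. Counting only the subunits of 1 enzyme moved the median log2 ratio of polymerase I to −0.93 after deletion and −0.43 after knockdown, and that of polymerase II to −0.18 after deletion. Without each deletion library in turn, the Polr1 median ran from −0.69 to −0.47, the Polr2 median from −0.51 to −0.21 and the Polr3 median from −0.35 to −0.16. Of the members' ratios, those that changed sign without a library were near 0: Polr2c −0.137 to 0.102, Polr2g −0.112 to 0.153, Polr2i −0.228 to 0.359, Polr3a −0.161 to 0.232, Polr3c −0.141 to 0.157 and Polr3f −0.055 to 0.160. Polr2c after deletion was 0.022 with columns scaled to the same total and 0.004 when centred on protein-coding genes, and Polr3f after knockdown was 0.035 and 0.003. Polr1a ran from −1.30 to −0.49, Polr1b from −2.16 to −1.31, Polr3e from −1.41 to −0.87, Polr3gl from 0.14 to 0.63 and Polr2k from 0.20 to 1.38. No paired analysis was possible because the recovered libraries carry no replicate number. Where a library was left out, limma took the lone library of its group to vary like the other group. With 2 libraries a group, limma's interval for Polr3c, a well-covered gene near 0, still ran from −0.46 to 0.48. Polr3c carries the confounded mark and overlaps Rnf115. The knockdown table holds no spread.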
